A study of Mus musculus with 29 samples.

Results

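The 9 genes described here, Aqp4, Kcnj10, Kcnj16, Mlc1, Hepacam, Slc4a4, Clcn2, Dag1 and Kcne1l, encode proteins that move or anchor the movement of water, potassium, chloride and bicarbonate at the astrocyte endfoot, together with the potassium channel subunit gene Kcne1l. They were taken by gene symbol and are 9 of the 36172 gene rows of the table. Their choice used measured values: Kcne1l was chosen by its rank in the Aldh1l1 positive fraction over the Aldh1l1 negative fraction, and the others were selected with that contrast known, so the Aldh1l1 fractions are given below as a description with no test. Of the 9, 4 (Aqp4, Mlc1, Hepacam and Slc4a4) were also on the list of 138 astrocyte genes that the study used.

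Astrocyte endfeet are the flattened processes with which astrocytes cover brain capillaries and line the pial surface. AQP4, the main water channel of brain, sits there in dense arrays held by the dystrophin complex, which binds the basement membrane of the vessel through dystroglycan, the product of Dag1. KCNJ10 is an inwardly rectifying potassium channel that clears potassium released by neurons, alone or together with its partner subunit KCNJ16. MLC1 is a membrane protein of astrocyte junctions at vessels, HEPACAM (GlialCAM) is the adhesion molecule that brings it there, and the chloride channel CLCN2 is a further partner of HEPACAM. Loss of MLC1 or HEPACAM causes a leukodystrophy with cysts in people. SLC4A4 is a sodium bicarbonate cotransporter, and KCNE1L (also named KCNE5) is a small subunit that modulates voltage-gated potassium channels and is not an established endfoot protein.

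RNA came from brains of NuTRAP mice, in which Cre recombinase turns on a GFP-tagged ribosomal protein together with labelled nuclei. The mice carried Aldh1l1-Cre/Ert2+; NuTRAP+ (3 mice, numbers 290, 293 and 294) or Cx3cr1-Cre/Ert2+; NuTRAP+ (6 mice, numbers 155, 192, 194, 209, 210 and 277), so tagging followed the Aldh1l1 promoter of astrocytes or the Cx3cr1 promoter of microglia. All mice of both genotypes received tamoxifen, in 5 daily injections at about 3 months of age, and brains of the Cx3cr1 mice were collected 3 to 4 weeks after it. Both sexes were used, but the labels do not give the sex of each mouse, and the groups were not split by sex. A brain hemisphere was homogenized and cleared by centrifugation. Part of that supernatant is the input, the RNA held on anti-GFP beads is the positive fraction, and the unbound remainder is the negative fraction. Whole tissue is RNA isolated from brain in the conventional way; its samples are titled as slices. Positive and negative fractions of the 3 Aldh1l1 mice, all 3 homogenate fractions of the 6 Cx3cr1 mice, and whole tissue of 5 Cx3cr1 mice (all but 155) were analysed, 29 libraries in all; Aldh1l1 input and whole tissue were not analysed here.

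The shallowest library, whole tissue of mouse 210, held 4260795 counts and the deepest 26857890, and group medians lay between 17787142 and 22714031. Some libraries stood apart. As a measure of transcript length, the median log2 level of 3313 genes with a longest transcript over 5 kb was set against that of 2686 genes under 2 kb, both relative to the mean input. It was -1.89 in the Aldh1l1 positive fraction of mouse 290 (the others -0.75 and -0.89), -0.88 in its negative fraction (others -0.24 and -0.11), and -0.89 in the Cx3cr1 negative fraction of mouse 155 (others -0.36 to -0.19). The tissue library of mouse 210 was at -0.21 (others -0.07 to 0.14), with an endothelial marker sum of 273 CPM (others 429 to 490). For the results that turn on these libraries, values without them are given as well.

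By GENCODE on GRCm38, the build of the files (mm10), the 8 genes other than Aqp4 lie at chr1:172341210-172374085 (Kcnj10, forward strand), chr11:110968033-111027968 (Kcnj16, forward), chr15:88955884-88979007 (Mlc1, reverse), chr9:37367351-37386575 (Hepacam, forward), chr5:88886818-89239653 (Slc4a4, forward), chr16:20702964-20717746 (Clcn2, reverse), chr9:108204634-108263958 (Dag1, reverse) and chrX:142304752-142306294 (Kcne1l, reverse). Counts are over each whole gene.

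The promoters of 4 genes are shown because they set genes with a large difference between the Aldh1l1 fractions (Kcnj10, Hepacam and Kcne1l) beside Clcn2, which had little. Each runs from 250 bases before to 50 bases after the transcription start in RefSeq on GRCm38.p6, read 5′ to 3′ on the strand of the gene. Capitals mark the half-site of nuclear factor I (TTGGC, or GCCAA on the opposite strand) and a SOX core (ACAAT, or ATTGT on the opposite strand), 2 factor families with known roles in glia; no marked stretch overlaps another.
Kcnj10, chr1:172340960-172341259, forward strand: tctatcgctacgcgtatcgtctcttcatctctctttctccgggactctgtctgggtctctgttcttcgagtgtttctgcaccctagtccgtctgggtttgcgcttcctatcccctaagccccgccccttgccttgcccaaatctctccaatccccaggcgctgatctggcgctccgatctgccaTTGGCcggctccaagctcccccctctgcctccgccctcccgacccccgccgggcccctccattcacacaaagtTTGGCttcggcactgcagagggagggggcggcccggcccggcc
Hepacam, chr9:37367356-37367655, forward strand: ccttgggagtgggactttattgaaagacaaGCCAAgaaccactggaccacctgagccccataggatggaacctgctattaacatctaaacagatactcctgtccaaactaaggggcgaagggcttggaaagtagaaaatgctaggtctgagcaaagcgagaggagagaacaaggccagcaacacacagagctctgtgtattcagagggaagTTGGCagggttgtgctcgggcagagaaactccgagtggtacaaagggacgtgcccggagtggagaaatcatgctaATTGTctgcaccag
Kcne1l, chrX:142306149-142306448, reverse strand: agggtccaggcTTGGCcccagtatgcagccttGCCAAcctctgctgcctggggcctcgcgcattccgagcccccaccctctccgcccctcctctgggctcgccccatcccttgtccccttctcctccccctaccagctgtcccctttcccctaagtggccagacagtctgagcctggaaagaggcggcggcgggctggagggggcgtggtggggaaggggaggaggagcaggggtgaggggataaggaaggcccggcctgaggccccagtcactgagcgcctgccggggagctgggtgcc
Clcn2, chr16:20716587-20716886, reverse strand: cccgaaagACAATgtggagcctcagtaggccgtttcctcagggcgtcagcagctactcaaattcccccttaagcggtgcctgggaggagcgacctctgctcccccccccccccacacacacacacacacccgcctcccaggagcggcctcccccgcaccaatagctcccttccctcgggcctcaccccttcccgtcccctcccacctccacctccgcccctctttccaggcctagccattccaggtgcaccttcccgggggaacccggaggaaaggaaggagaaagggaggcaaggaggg
The first 3 each hold 2 nuclear factor I half-sites and the Clcn2 window holds 0, but the count did not follow the size of the difference over the other genes: the Mlc1 window holds 1, the 4 Kcnj16 windows hold 0 to 2, the 2 Slc4a4 windows 3 and 1, and the 2 Dag1 windows 1 and 2. For comparison, TTGGC on either strand occurred in 46.71% of all 32851 RefSeq promoters of this length. Hepacam and Clcn2 hold 1 SOX core each, a motif found in 31.02% of promoters. The GC contents were 63.67% for Kcnj10, 50.67% for Hepacam, 69.67% for Kcne1l and 65.67% for Clcn2, against a median of 52.67%. The windows held 21 CpG dinucleotides for Kcnj10, 6 for Hepacam, 12 for Kcne1l and 13 for Clcn2, against a median of 7. These matches describe the letters only.

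In the Aldh1l1 mice, 8 of the 9 genes were higher in every positive library than in every negative library, as were 21.4% of the 13319 genes fitted; because this contrast chose the genes, nothing is read from that count. Levels are in CPM, the count of a gene divided by the library's total count and scaled to a common library size. Fold changes are edgeR estimates after TMM scaling. The SD is over the 3 mice, of each mouse's log2 ratio of positive to negative. In bulk RNA, fewer cells of a type and less RNA per cell cannot be told apart.

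Kcne1l was at 112.3, 100.8 and 96.3 CPM in the positive fractions of mice 290, 293 and 294 and at 8.5, 6.7 and 6.1 CPM in their negative fractions. The ratio within a mouse lay between 13.15 and 15.69. The log2 fold change was 4.22 (SD 0.13, n = 3 mice), which ranked 2 among 12126 genes with over 20 counts in all 6 libraries, between Fxyd1 at 4.32 and Slc25a34 at 4.16; among all 13319 genes it ranked 7. In this contrast the median of all genes fell from 0.46 in the quintile with the shortest transcripts to -0.36 in the quintile with the longest. Kcne1l has the shortest transcript of the 9 and stood at 3.76 relative to its own quintile, an alternative chosen after seeing the data. Fxyd1 encodes a regulator of the sodium pump and Slc25a34 a mitochondrial carrier.

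Mlc1 followed at 1766, 1641 and 1665 CPM in the positive fractions and 224.4, 187.5 and 188.0 CPM in the negative fractions, a log2 fold change of 3.42 (SD 0.09). Hepacam stood at 755.1, 912.3 and 839.7 CPM against 133.8, 121.7 and 122.4 CPM, with a log2 fold change of 3.07 (SD 0.21). These genes, which encode the junction protein and its adhesion partner, were even over the 3 mice.

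The water and potassium channels varied more. Aqp4 was at 268.3, 499.9 and 557.3 CPM in the positive fractions and 55.1, 63.4 and 74.4 CPM in the negative fractions (log2 fold change 3.12, SD 0.38). Kcnj10 was at 872, 2126 and 1910 CPM against 185.7, 297.4 and 309.8 CPM (2.97, SD 0.31), and its partner Kcnj16 at 148.5, 276.5 and 250.4 CPM against 27.9, 32.1 and 37.7 CPM (3.13, SD 0.35). The bicarbonate cotransporter gene Slc4a4 was at 534.8, 1055 and 1012 CPM against 146.4, 194.9 and 214.6 CPM (2.57, SD 0.29). In each of these genes mouse 290 was lowest in both fractions, the mouse whose libraries held the fewest long transcripts, and the part of transcript length in this was not tested. Without mouse 290 the log2 fold changes were 3.25 for Aqp4, 3.04 for Kcnj10, 3.23 for Kcnj16, 2.65 for Slc4a4, 4.25 for Kcne1l, 3.45 for Mlc1, 3.155 for Hepacam and 1.38 for Dag1. Relative to genes of the same length quintile they were 3.27 for Aqp4, 3.33 for Kcnj10, 3.1 for Kcnj16, 2.93 for Slc4a4, 3.20 for Mlc1, 3.04 for Hepacam and 1.73 for Dag1.

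Dag1 and Clcn2 stood apart from the rest. Dag1 was at 100.4, 216.0 and 186.1 CPM in the positive fractions against 55.8, 93.5 and 98.1 CPM in the negative fractions, a log2 fold change of 1.37 (SD 0.19). Clcn2 was at 48.7, 50.2 and 56.5 CPM against 37.9, 54.5 and 56.2 CPM, so its ranges overlapped, and its fitted log2 fold change was 0.41 (SD 0.25), or 0.26 without mouse 290. With scaling by total counts alone it was 0.06, since that scaling moves the median of all genes from 0.04 to -0.31; the same scaling gave 3.87 for Kcne1l and 1.02 for Dag1. Clcn2 thus differed little between the Aldh1l1 fractions.

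**Figure D1:**
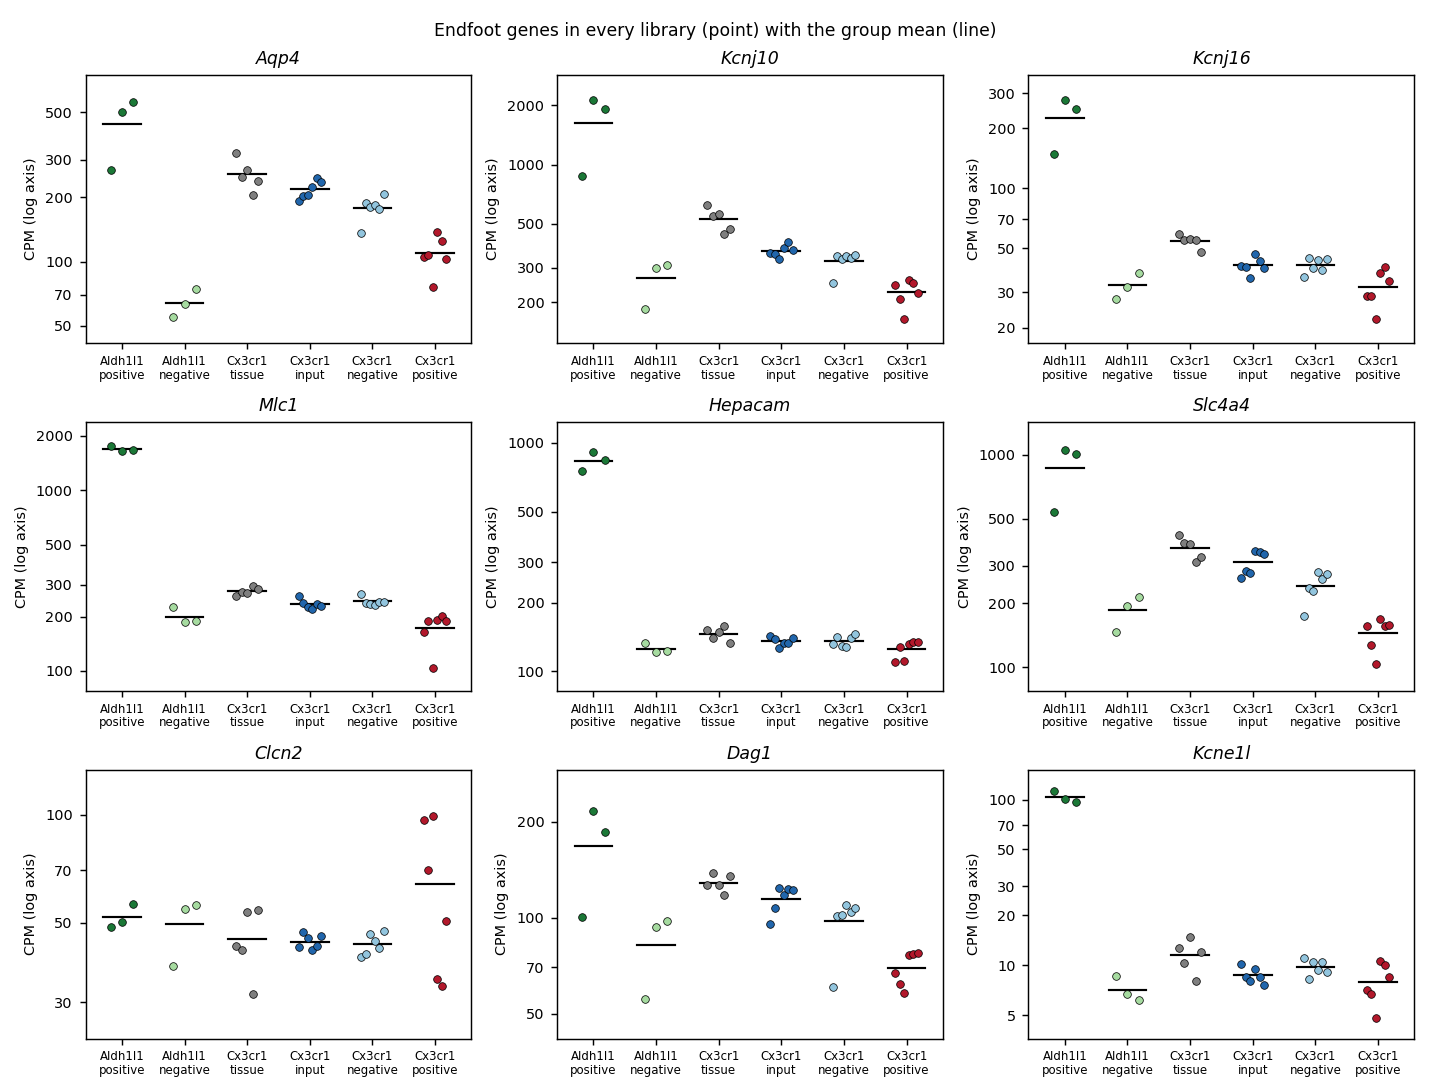
Level of each of the 9 genes in every library (vertical axis, CPM, log scale) by group (horizontal axis), 1 point per mouse with a line for the group mean. The Aldh1l1 positive mean is the highest for 8 genes, while for Clcn2 the Cx3cr1 positive mean is, with libraries at up to 99.1 CPM.

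Divided by the length of the longest annotated transcript, levels can be set side by side between genes. In the Aldh1l1 positive fraction Mlc1 was highest at 603.7 CPM per kb, followed by Kcnj10 at 302.6, Hepacam at 249.7, Slc4a4 at 109.4, Aqp4 at 87.42, Kcne1l at 66.85, Kcnj16 at 60.84, Dag1 at 29.58 and Clcn2 at 13.14. In the Cx3cr1 input the order began with Mlc1 at 83.76 CPM per kb and Kcnj10 at 67.6, but Aqp4 at 43.11 stood level with Hepacam at 40.6 and Slc4a4 at 39.27, and Kcne1l was last at 5.657. Relative to Kcnj10, Aqp4 counts were 0.2351 to 0.3077 in the Aldh1l1 positive libraries and 0.2131 to 0.2968 in the Aldh1l1 negative libraries, against 0.539 to 0.6427 in input and 0.4549 to 0.5149 in whole tissue of the Cx3cr1 mice. The 2 genotypes did not overlap in this ratio, in bound or unbound RNA. Genotype and the mice's preparation cannot be told apart here.

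Aldh1l1 positive had the highest mean and whole tissue the next for 8 genes, and the order below that differed between genes. For Aqp4 the means fell in the order Aldh1l1 positive (441.8 ± 153 CPM, SD, n = 3), whole tissue (257.0 ± 43.4, n = 5), input (217.9 ± 20.8, n = 6), Cx3cr1 negative (178.7 ± 23.7, n = 6), Cx3cr1 positive (109.2 ± 21.3, n = 6) and Aldh1l1 negative (64.3 ± 9.66, n = 3). Each neighbour in that order overlapped the next except the last pair. For Kcnj10, Kcnj16, Mlc1, Hepacam, Slc4a4 and Kcne1l the Aldh1l1 positive libraries lay above every whole tissue library, with ratios of means from 2.379 for Slc4a4 to 8.932 for Kcne1l. Cx3cr1 positive had the lowest mean for Kcnj10, Kcnj16, Mlc1, Hepacam, Slc4a4 and Dag1, and Aldh1l1 negative for Aqp4 and Kcne1l. For Clcn2 the highest mean was in Cx3cr1 positive and the lowest in Cx3cr1 negative.

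Neighbouring gene families in the same contrast were mixed, again as a description. The list of 19 general astrocyte genes had a median log2 fold change of 3.22, next to 3.07 for the 9 genes and 0.04 for all genes. Of 15 genes of the dystrophin complex and dystroglycan ligands, 13 were fitted, with a median of 0.77. The 10 fitted of 11 MLC1 partners and volume regulation genes had a median of 0.91, and 11 of 13 other inward rectifiers a median of -1.37. The 10 choroid plexus markers had a median of 2.35, with a sum of 2993 to 3418 CPM in the positive and 510.4 to 664.9 CPM in the negative fractions. The 6 fitted ependymal genes had a median of 1.72, with the list at 73.6 to 113.7 CPM against 30.1 to 46.7 CPM. Medians were -1.58 for 10 neuron genes, -2.79 for 10 oligodendrocyte genes, -2.27 for 10 microglia genes and -0.35 for 12 endothelial genes. The part of these cell types in the values of the 9 genes was not tested here.

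Input was set against whole tissue of the Cx3cr1 mice to ask whether levels of these genes differ between the cleared homogenate and conventionally isolated RNA. The clearing, the method of isolation and the piece of brain cannot be told apart in this comparison. All 9 estimates were below 0 and 4 of 9 genes were called lower in input by edgeR (Benjamini-Hochberg adjusted p over 13608 genes). Of all genes, 14.6% were called lower and 15.7% higher. The median log2 fold change was -0.24 for the 9 genes and -0.00 for all genes.

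Kcnj10, the potassium channel, was at 353.7, 332.4, 378.4, 403.4 and 367.8 CPM in the inputs of mice 192, 194, 209, 210 and 277 (357.4 in mouse 155) and at 625.3, 549.9, 560.4, 444.8 and 471.4 CPM in their whole tissue. The groups did not overlap, and input was below tissue in 5 of 5 mice, by a ratio of 0.5657 to 0.9069. The log2 fold change was -0.55 (SE 0.08, edgeR adjusted p = 0.00034).

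Kcnj16 moved with its partner. Its inputs lay between 35.6 and 47.0 CPM (median 40.5, n = 6) and its tissues at 58.8, 54.8, 55.4, 54.9 and 47.9 CPM, again without overlap and lower in 5 of 5 mice. The log2 fold change was -0.41 (SE 0.08, edgeR adjusted p = 0.00133).

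Mlc1 ranged from 221.4 to 260.1 CPM (median 231.3) in input and stood at 260.8, 272.0, 268.4, 294.5 and 282.3 CPM in tissue. The gap between the groups was narrow but no input library reached a tissue library. These 3 genes of the 9 had no overlap between input and tissue, as had 14% of all genes. Its log2 fold change was -0.24 (SE 0.05, edgeR adjusted p = 0.0030), and in a fit of all 6 groups together it was no longer called (adjusted p = 0.0815).

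Kcne1l was called on fewer reads. It lay between 7.6 and 10.2 CPM (median 8.50) in input and at 12.6, 10.3, 14.8, 8.0 and 12.0 CPM in tissue, where the value of mouse 210 rests on 34 counts. The groups overlapped through that library and input was lower in 4 of 5 mice. The log2 fold change was -0.45 (SE 0.13, edgeR adjusted p = 0.0177), and the call was lost without mouse 192 (adjusted p = 0.0889), mouse 209 (0.0779) or mouse 277 (0.0725).

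The other 5 genes did not pass. Aqp4 lay between 192.6 and 245.8 CPM (median 214.9) in input and at 321.9, 250.2, 269.8, 204.4 and 238.7 CPM in tissue. The groups overlapped only through the tissues of mice 210 and 277, and the log2 fold change was -0.25 (interval of 2 SE from -0.46 to -0.05, edgeR adjusted p = 0.0746); DESeq2 called it lower (adjusted p = 0.0475). Slc4a4 gave -0.24 (-0.44 to -0.04, adjusted p = 0.0834), Dag1 -0.18 (-0.33 to -0.03, adjusted p = 0.0870), Hepacam -0.12 (-0.23 to -0.00, adjusted p = 0.136) and Clcn2 -0.05 (-0.26 to 0.16, adjusted p = 0.740).

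Single mice moved several of these values. The tissue library of mouse 210 was the shallowest and the lowest of the 5 for Aqp4, Kcnj10, Slc4a4, Dag1, Kcne1l and Clcn2, and the highest for Mlc1 and Hepacam. Without mouse 210, 7 of 9 genes were called lower in input, against 19.4% of genes, and Aqp4 (log2 fold change -0.36, edgeR adjusted p = 0.0078), Slc4a4 (-0.32, 0.0235) and Dag1 (-0.23, 0.0366) joined the 4, while Kcnj10 was at -0.63. Without mouse 192 the estimates moved the other way, to -0.13 for Aqp4 (edgeR adjusted p = 0.360) and -0.15 for Slc4a4 (0.350). In the tissue library of mouse 210 the nuclear non-coding RNA list summed to 7741 CPM against 3154 to 4813 CPM in the other tissues; its part in these values was not tested.

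**Figure D2:**
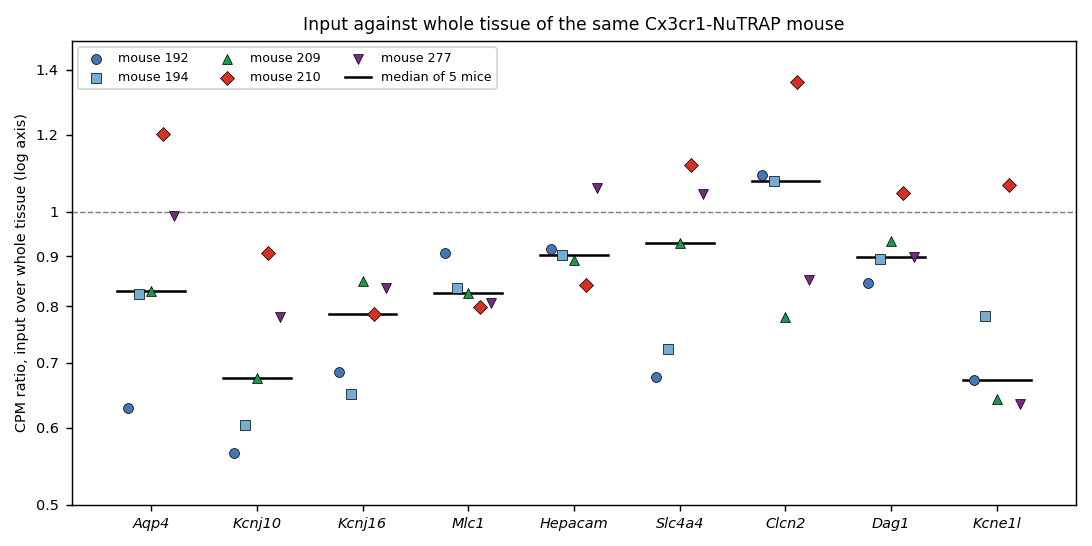
Ratio of input to whole tissue of the same Cx3cr1 mouse (vertical axis, ratio of CPM, log scale) for each gene, 1 symbol per mouse for 5 mice, with a line for the median and a dashed line at equal levels. All 5 mice lie below the dashed line for Kcnj10, Kcnj16 and Mlc1, and mouse 210 is the highest for Aqp4, Kcnj10, Slc4a4, Clcn2, Dag1 and Kcne1l.

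Markers of other cell types moved between the same libraries. Of 12 endothelial genes 12 were lower in input (median log2 fold change -1.31), with a sum of 167.6 to 189.5 CPM in input and 272.7 to 490.3 CPM in tissue, and all 12 were detected in both. Among them Flt1, a VEGF receptor, gave -1.71 and Cldn5, the tight junction claudin of vessels, -0.94. Of 8 pericyte and smooth muscle genes 6 were lower (median -0.95, sums 148.1 to 161.3 CPM against 171.1 to 232.9 CPM), and of 10 oligodendrocyte genes 9 (median -0.38, sums 4952 to 5685 CPM against 6815 to 9220 CPM). Of 5 ependymal genes 3 were lower (median -0.74). Other lists held genes higher in input: choroid plexus had 4 higher and 1 lower of 10 (median 0.70, sums 868.1 to 1047 CPM against 230.5 to 1034 CPM), neurons 4 higher and 3 lower of 10 (median 0.06), and nuclear non-coding RNA 4 higher and 1 lower of 7 (median 0.55). The 10 microglia genes summed to 413.3 to 450.6 CPM in input and 390.6 to 598.2 CPM in tissue. The part of these cell types in the values of the 9 genes was not tested.

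Astrocyte genes in general also tended down. Of the 19 general astrocyte genes 10 were lower in input and none was called higher (median -0.18), with Slc6a11, a GABA transporter, at -0.90 and Fgfr3, a growth factor receptor, at -0.45. Of 134 genes of the study's astrocyte list outside the 9, 47 were lower and 15 higher (median -0.14); that list was chosen by the study for astrocytes. The summed level of the 9 genes was 12.93% to 14.51% of the general astrocyte sum in input and 12.76% to 16.33% in tissue. The overlap came from the tissue of mouse 210 alone; the other 4 tissues, at 14.84% to 16.33%, lay above every input.

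Among proteins linked to the 9, changes were scattered. Of 14 tested genes of the dystrophin complex and dystroglycan ligands 5 were lower in input (median -0.16), led by Utrn, which encodes the dystrophin relative utrophin, at -0.83 and Hspg2, the basement membrane proteoglycan perlecan, at -0.62, with Dmd at -0.30. Of 6 genes that glycosylate dystroglycan 1 was higher (Large at 0.22, list median 0.01). Of 10 MLC1 partners and volume regulation genes 2 were lower, the volume-regulated anion channel subunits Lrrc8c at -0.61 and Lrrc8a at -0.27 (median -0.08).

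Over the other channel and transporter families calls went in both directions, beside 14.6% of all genes called lower and 15.7% higher. Of 11 other inward rectifiers 3 were higher and 3 lower (median 0.19), from Kcnj4 at 1.16 to Kcnj5 at -1.33. Of 3 two-pore potassium channels of astrocytes 2 were higher, Kcnk2 at 0.40 and Kcnk1 at 0.25 (median 0.25). Of 5 other aquaporins 2 were higher, Aqp6 at 1.61 and Aqp1 at 1.18 (median -0.00); Aqp1 is also a choroid plexus gene. The other SLC4 transporters had 1 higher and 1 lower of 7 (Slc4a7 at 0.30, Slc4a2 at -0.28, median 0.08), and the other CLC genes 1 higher and 2 lower of 6 (Clcn1 at 1.56, Clcn5 at -1.02, median -0.06). Neither of 2 KCNE subunits passed (median 0.45).

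The negative fraction is what the beads left of the cleared homogenate. With edgeR 0 of 9 genes were called in the Cx3cr1 negative fraction against input, where 4.7% of 13748 genes were called lower and 1.41% higher; 3 of the 9 had an unadjusted p under 0.05, as did 4376 of all genes, and DESeq2 called 2 of 9, with 2056 of 13735 genes called in either direction. With mouse as a block, 4 of 9 genes were lower, against 19.5% of all genes. They were Slc4a4 (log2 fold change -0.36, edgeR adjusted p = 1.564e-05), Aqp4 (-0.28, 0.000437), Dag1 (-0.25, 0.00328) and Kcnj10 (-0.16, 0.0184).

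Slc4a4 had a lowest, median and highest level of 263.1, 312.4 and 353.7 CPM in input and 174.1, 247.8 and 279.0 CPM in the negative fraction. Aqp4 was at 192.6, 214.9 and 245.8 CPM against 135.7, 181.8 and 207.5 CPM. The groups overlapped for both genes, and yet the negative fraction was below input in 6 of 6 mice for Aqp4, Kcnj10, Slc4a4 and Dag1. Mlc1 was above input in 6 of 6 mice, by a ratio of 1.003 to 1.063. Without mouse 155, whose negative library held few long transcripts, 3 of 9 genes were lower against 14.8% of all genes: Aqp4 (edgeR adjusted p = 0.0027), Dag1 (0.0061) and Slc4a4 (0.0148).

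The 4 genes lower under the block have longest transcripts of 5.054 kb or more, and Kcne1l and Mlc1, at 1.543 and 2.801 kb, have the shortest. Over all genes the median log2 fold change fell from 0.20 in the quintile of genes with the shortest transcripts to -0.18 in the quintile with the longest. Relative to the median of its own quintile, an alternative chosen after seeing the data, Kcnj10 stood at 0.02 (its length lies at the edge of the quintile below, whose median was -0.07), Dag1 at -0.05, Slc4a4 at -0.18, Aqp4 at -0.21 and Kcne1l at -0.03. Between input and tissue the medians of the quintiles lay between -0.03 and 0.01, and Kcnj10 relative to its quintile was at -0.56. The part of transcript length was not tested in either comparison.

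**Figure D3:**
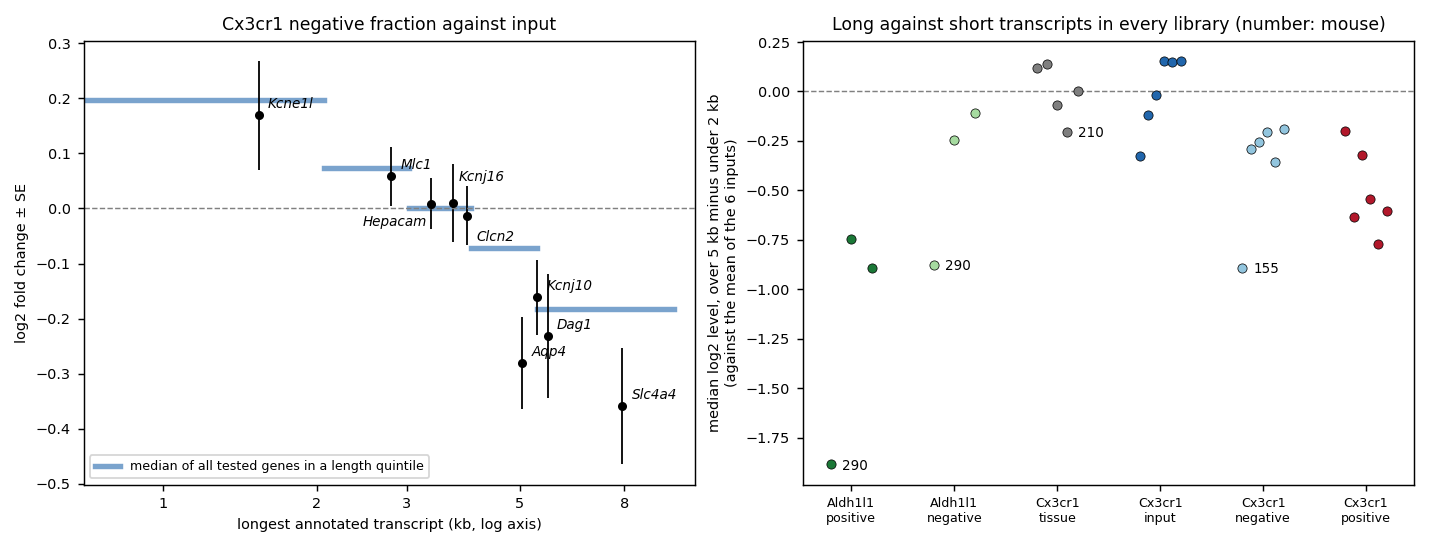
Left, log2 fold change of the 9 genes in negative fraction against input (vertical axis, bars of 1 SE) against the length of the longest transcript (horizontal axis, kb, log scale), with steps for the median of all genes in each length quintile, which fall from 0.20 to -0.18. Right, median log2 level of transcripts over 5 kb minus that of transcripts under 2 kb in every library, 1 point per library by group, with the libraries of mice 290, 155 and 210 numbered, the lowest at -1.89.

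In the Cx3cr1 positive fraction, which holds ribosome-bound RNA of Cre-tagged cells, 6 of 9 genes were lower than in input (edgeR, 13838 genes), where 25.6% of genes were called lower and 23.3% higher. All 10 microglia markers were higher there, with a sum of 3384 to 8139 CPM against 413.3 to 450.6 CPM in input. The median log2 fold change was -0.42 for the 9 genes, -0.30 for the 19 general astrocyte genes, of which 12 were lower, and -0.00 for all genes. Much astrocyte RNA was still present in this fraction. The general astrocyte list summed to 6585 to 10250 CPM there and 10530 to 11020 CPM in input. Levels of the 9 genes in this fraction are thus not levels of microglia alone. Of markers of other cell types, 9 of 10 oligodendrocyte genes (median -0.68) and 4 of 10 choroid plexus genes (median -0.42) were lower. Of 8 pericyte and smooth muscle genes 4 were lower and 1 higher (median -0.45). Of 10 neuron genes 3 were lower (median -0.16), near the 25.6% of all genes. The neuron list summed to 5824 to 8857 CPM in the positive fraction and 8251 to 8593 CPM in input. Of 12 endothelial genes 4 were higher (median 0.20). Their part in the values of the 9 genes was not tested.

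Slc4a4 was at 102.9, 155.7 and 168.5 CPM (lowest, median and highest of 6) against 263.1, 312.4 and 353.7 CPM in input, a log2 fold change of -1.09 (SE 0.12, edgeR adjusted p = 6.548e-06). Aqp4 was at 75.8, 106.7 and 138.0 CPM against 192.6, 214.9 and 245.8 CPM (-0.98, SE 0.12, adjusted p = 1.207e-05). Dag1 was at 58.2, 71.7 and 77.7 CPM against 95.5, 120.1 and 123.7 CPM (-0.71, SE 0.09, adjusted p = 2.315e-05). None of the 3 overlapped between the fractions, and each was lower in 6 of 6 mice. Here 5 of the 9 genes and 25.3% of all genes did not overlap. Of the 6 positive libraries, that of mouse 194 was the lowest for these 3 genes and for Kcnj10, Kcnj16, Mlc1 and Kcne1l.

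Kcnj10 was at 164.7, 232.6 and 258.4 CPM against 332.4, 362.6 and 403.4 CPM, also without overlap (-0.69, SE 0.10, edgeR adjusted p = 5.416e-05). Mlc1 was at 103.2, 188.9 and 202.2 CPM against 221.4, 231.3 and 260.1 CPM (-0.42, SE 0.12, adjusted p = 0.0108). Kcnj16 overlapped between the fractions and gave -0.35 (SE 0.12, adjusted p = 0.0244), a call lost without mouse 155 (adjusted p = 0.0584) or mouse 192 (0.104).

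Hepacam and Kcne1l did not pass. Hepacam was at 109.5, 129.5 and 134.7 CPM against 126.7, 136.0 and 143.1 CPM, a log2 fold change of -0.11 (interval of 2 SE from -0.23 to 0.02, edgeR adjusted p = 0.165), while Kcne1l gave -0.12 (-0.45 to 0.20, adjusted p = 0.554). Relative to genes of the same length quintile the estimates were -0.85 for Aqp4, -0.81 for Slc4a4, -0.51 for Mlc1, -0.42 for Dag1, -0.40 for Kcnj10 and -0.36 for Kcne1l. Of the linked lists, 8 of 10 MLC1 partners (median -0.44), 3 of 3 two-pore channels (median -0.35), 4 of 6 other CLC genes (median -0.39) and 4 of 11 other inward rectifiers (median -0.24) were lower, and the dystrophin list had 6 lower and 2 higher of 14 (median -0.30).

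Against the negative fraction, with which it shares mice, the positive fraction was again lower for 6 of 9 genes, against 11.6% of 13776 genes called lower and 12.8% higher. These were Slc4a4 (-0.71, edgeR adjusted p = 0.00109), Aqp4 (-0.69, 0.00123), Kcnj10 (-0.51, 0.0037), Mlc1 (-0.46, 0.0161), Dag1 (-0.46, 0.0185) and Kcnj16 (-0.34, 0.0493). The median was -0.46 for the 9 genes and -0.02 for all genes. Other lists moved as well: 14 of 19 general astrocyte genes (median -0.35), 9 of 10 oligodendrocyte genes (median -0.75), 7 of 10 MLC1 partners (median -0.39) and 3 of 3 two-pore channels (median -0.51) were lower, and 10 of 10 microglia genes were higher (median 3.63). Without mouse 192 only Aqp4, Kcnj10 and Slc4a4 were called, 3 of 9 against 4.12% of genes, and Dag1 was also lost without mouse 194 (edgeR adjusted p = 0.0772) or mouse 277 (0.0513). Kcnj16 was lost under 8 alternatives: without mouse 155 (0.0562), 192 (0.215), 194 (0.110), 209 (0.0618) or 277 (0.113), with mouse as a block (0.0606), with no filter on low counts (0.0580) and with at least 100 counts (0.0584).

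**Figure D4:**
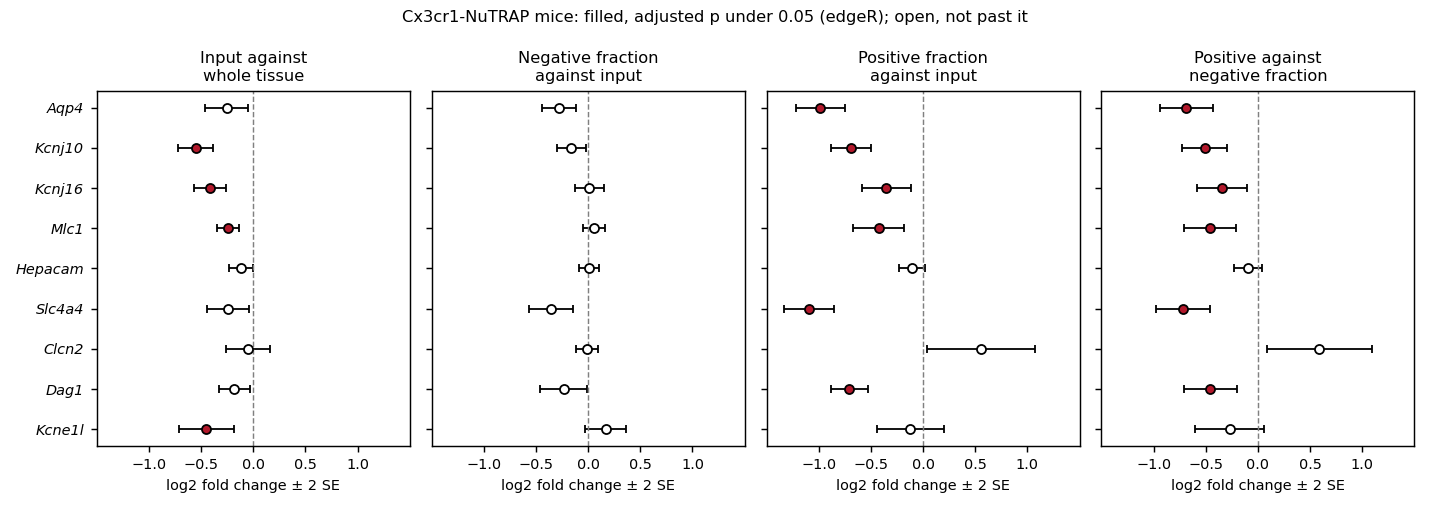
Log2 fold change of each gene (horizontal axis) in the 4 comparisons of Cx3cr1 mice, with bars of 2 SE from edgeR; filled points passed an adjusted p of 0.05 and open points did not. Aqp4 and Slc4a4 lie lowest in the positive fraction, at -0.98 and -1.09 against input, and Clcn2 lies above 0 there at 0.56.

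Clcn2 went apart from the others in the Cx3cr1 positive fraction. It was at 96.6, 70.2 and 99.1 CPM in mice 155, 192 and 194 and at 34.7, 33.2 and 50.6 CPM in mice 209, 210 and 277, against 41.8 to 47.0 CPM in the inputs, so that 4 of the 6 lay above every input library and 2 below. The log2 fold change was 0.56 (interval of 2 SE from 0.04 to 1.08, edgeR adjusted p = 0.0917), and it was called higher without mouse 209 (adjusted p = 0.0414), without mouse 210 (0.0324), with DESeq2 (0.0379) and in the fit of all 6 groups (0.0167). In the same order of mice the nuclear non-coding list summed to 17406, 14364 and 17538 CPM and to 6009, 6254 and 8005 CPM. The same 3 mice were high in both, and the part of nuclear RNA in the Clcn2 values was not tested.

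Clcn2, at chr16:20702964-20717746 on the reverse strand, overlaps Fam131a and Polr2h on the opposite strand. Libraries and alignment were strand-specific, and the study retained only reads that had aligned in the appropriate direction. Whether counts were assigned by strand is not given in the sources used here, so reads of these genes may not be fully separate. Fam131a was at 192.4, 251.6 and 186.8 CPM in the positive fractions of mice 155, 192 and 194 and at 254.2, 244.6 and 251.7 CPM in those of mice 209, 210 and 277, and Polr2h lay between 17.84 and 24.03 CPM in all 6. Neither was highest in the 3 mice with high Clcn2.

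**Figure D5:**
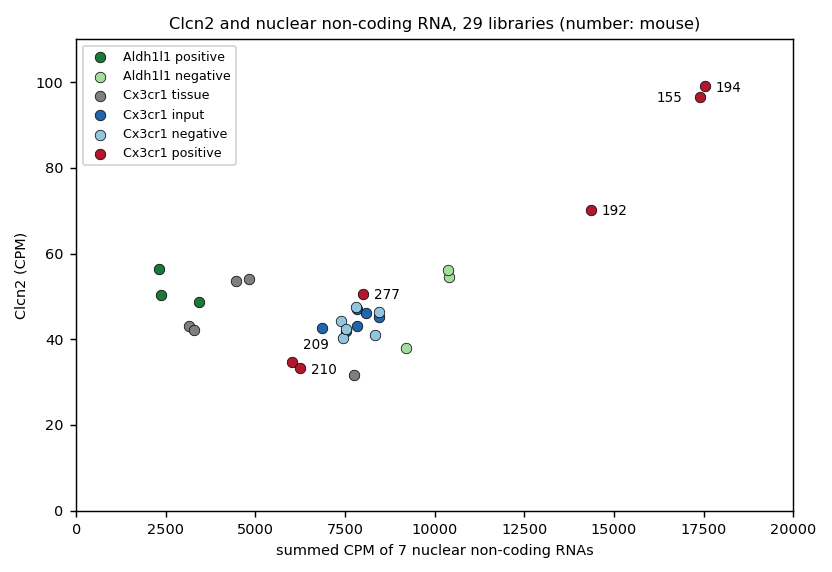
Clcn2 level (vertical axis, CPM) against the summed level of the nuclear non-coding RNA list (horizontal axis, CPM), 1 point per library, coloured by group. The 3 Cx3cr1 positive libraries with 70.2 to 99.1 CPM of Clcn2 are the 3 with the highest nuclear sums, 14364 to 17538 CPM.

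The genes whose levels ran closest to a member were found by Pearson's r of log2 CPM among 14108 genes, as a description, since the libraries of a mouse and of a fraction share their source. The genes named as closest are those outside the 9. Over the 29 libraries the closest to Aqp4 were Fut8 (0.93), Gm2115 (0.92), Plce1 (0.92), E030003E18Rik (0.92) and Folh1 (0.91). Over the 23 Cx3cr1 libraries they were Ahcyl2 (0.99), Lrrn1, Acsl6, Paqr8 and Neo1 (0.98 each), while of the 9 genes Slc4a4 stood above Paqr8 and Neo1, with an r of 0.978 against 0.977 for each, and Kcnj10 was at 0.96. For Kcne1l the closest over 29 libraries were Mid1ip1 and Slc25a18 (0.99 each), 1700084C01Rik, Hadh and Oat (0.98 each), with 0.98 for Mlc1, 0.97 for Hepacam and 0.67 for Aqp4. Over the 23 Cx3cr1 libraries, which lack the Aldh1l1 fractions, r with Mlc1 was 0.73 and the closest were Rtn2 (0.92), Sdha (0.91), Rit2 (0.90), Adcyap1 (0.89) and Glo1 (0.89).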

How the data were processed

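PolyA RNA libraries from fractions of mouse brain were sequenced, and the authors aligned the reads to mm10 and quantified genes in Strand NGS. The deposited table holds estimated counts per gene, 81.4% of its nonzero values not whole within 0.001, which were rounded to whole numbers here. Its deposited normalized log2 columns were not used, and no column lacked a sample. CPM is the count divided by the library total. Genes with over 20 counts in every library of at least 1 compared group were fitted with edgeR 4.0.16 in R 4.3.3 (TMM, robust quasi-likelihood test, Benjamini-Hochberg adjusted p under 0.05), tested on simulated data. DESeq2 1.42.0, other scalings and count filters, a fit of all 6 groups and each mouse left out were alternatives. Centring on transcript length quintiles was added after seeing the data. Annotation was GENCODE vM21 (GRCm38) and promoters came from RefSeq. Fractions of 1 mouse share an animal, so mouse numbers pair libraries. Correlations of deviations were over 0.1 in 3 of 3 Aldh1l1 pairs, 5 of 6 negative and input pairs, 3 of 6 positive and input pairs, 3 of 6 positive and negative pairs, and 0 of 5 input and tissue pairs. The 9 genes and all lists were chosen with earlier results of these data known. From other lists the text names at most the 2 highest and 2 lowest genes called in input against tissue, plus the neighbours of Kcne1l by rank and the 5 genes outside the 9 that were most like Aqp4 or Kcne1l. Intervals are 2 SE and SE are from edgeR. Depth was 4260795 to 26857890 counts per library, so Kcne1l in the shallowest rests on 34 counts.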

Additional observations from a re-analysis of the deposited data

Results flagged for a closer look

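In the Cx3cr1 negative fraction the library of mouse 155 lay apart from the other 5 for 3 genes. Kcnj10 was lowest there at 250.8 CPM, with the next library at 331.9 CPM, and Dag1 was lowest at 60.56 CPM, next to 101.7 CPM. Mlc1 was highest there at 267.5 CPM, next to 242 CPM. By Dixon's criterion chance flags about 1 in 20 groups, and 3 of 36 groups were flagged. That library was also the lowest of its fraction in the long transcript measure, at -0.89, and the part of that in these values was not tested.

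The ratio of positive to negative fraction had opposite signs in every mouse of the 2 genotypes for 4 genes. The mean log2 ratio of CPM was 2.72 in Aldh1l1 mice and -0.72 in Cx3cr1 mice for Aqp4, 2.56 and -0.54 for Kcnj10, 3.08 and -0.52 for Mlc1, and 2.18 and -0.74 for Slc4a4. The difference was not tested, because the Aldh1l1 contrast chose the genes.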

How the results depend on the processing

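The count of genes called in input against whole tissue was 4123, fell to 2450 in the fit of all 6 groups, and ranged from 2574 to 5395 with 1 mouse left out, when 3 to 7 of the 9 genes were called. In negative fraction against input 840 genes were called. DESeq2 called 2056, no filter on low counts 281, the fit of all 6 groups 59, the replicate block 5115, and leaving out 1 mouse 0 to 3815, where 0 to 3 of the 9 genes were called, with 2 under DESeq2 and 4 under the block. In positive against negative fraction 3352 genes were called, 1747 to 4273 with 1 mouse left out, when 3 to 6 of the 9 genes were called. Relative to genes of the same length quintile, signs turned in negative against input for Kcnj10 (-0.16 to 0.0214), Kcne1l (0.17 to -0.0285) and Mlc1 (0.06 to -0.0143). Others turned near 0. With 1 mouse left out, Clcn2 ranged from -0.1201 to 0.0281 in input against tissue, and in negative against input Kcnj16 ranged from -0.016 to 0.0477 and Clcn2 from -0.0266 to 0.0269. In the fit of all 6 groups Kcnj16 was at -0.0046 and Hepacam at -0.0064 in negative against input. The causes were not tested. The block changed a call besides these only for Kcnj16 in positive against negative fraction. The tissue of mouse 210, at 4260795 counts, is the least precise library.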
